A study of Mus musculus with 24 samples.

Results

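Pecam1, Cdh5, Kdr, Tek, Tie1, Emcn, Stab2, Eng and Madcam1 are 9 genes of the vessel lining and the splenic sinuses. They were followed in mouse spleen with every non-control array probe that carried 1 of their names, which gave 11 probes of 55681 and 9 of 36315 gene names. Kdr and Madcam1 had 2 probes each. All 9 genes and 11 probes passed the filter on dim probes, which left 29530 features (genes or unnamed transcripts) for the tests, and all 11 probes were well above background on all 24 arrays. The spleens came from BALB.K mice at 0, 300, 400 or 800 cGy and from B10.BR mice at 0, 300, 500 or 900 cGy of total body irradiation, taken 24 h after exposure or, at 0 cGy, from resting mice; the series' design text calls 800 and 900 cGy myeloablative. Each of these 8 groups had 3 one-colour Agilent arrays, and each array held RNA pooled from 3 mice and extracted from homogenised whole splenocytes, and the spread between arrays is thus one of pools. The labels name neither the sex of these mice nor any allele beyond the strain.

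Endothelial cells line blood vessels, and in the spleen they also form the venous sinuses of the red pulp and the marginal sinus around the white pulp. Pecam1 and Cdh5 (VE-cadherin) are adhesion molecules of the contacts between these cells. Kdr is the main signalling receptor for vascular endothelial growth factor, Tek is the receptor for the angiopoietins, Tie1 is the related receptor that modulates Tek, and Eng (endoglin) is a co-receptor for bone morphogenetic protein and transforming growth factor ligands. Emcn is a sialomucin of venous and capillary endothelium, Stab2 is a scavenger receptor of sinusoidal endothelium that takes up hyaluronan, and Madcam1 is a vascular addressin that binds the integrin α4β7 on lymphocytes and is made in the spleen by cells lining the marginal sinus. Several of these genes are also known from blood cells, Pecam1 from platelets and leukocytes, Eng from macrophages, and Tek and Emcn from hematopoietic stem cells. In RNA of a whole organ, fewer cells of a type and less RNA per cell cannot be told apart.

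On each array 66.9% to 77.0% of the probes were well above background, and no spot was saturated. The genes that define the tissue were present: at 0 cGy every gene of the B cell (11), T cell (11), erythroid (12) and macrophage (13) lists was well above background on all arrays, and of 43 other endothelial genes at most 1 on an array was not. Cdkn1a, a p53 target, served as the check of irradiation and lay between -2.51 and -1.86 on the 6 unirradiated arrays and between 1.35 and 3.08 on the 18 irradiated ones. The arrays lay on 3 slides of 8. For B10.BR, the unirradiated and 300 cGy groups and 2 of the 500 cGy arrays were on slide 1, and the rest, 1 array at 500 cGy and the 900 cGy group, on slide 2. For BALB.K, the controls and 1 of the 300 cGy arrays were on slide 2 as well, and everything else on slide 3. BALB.K at 400 and 800 cGy and B10.BR at 900 cGy thus shared no slide with their controls, nor did the unirradiated strains with each other. The pools were not alike in Ddx3y, a Y-linked gene: 12 of 12 arrays of B10.BR had it well above background but 6 of 12 of BALB.K, namely replicate 1 at 0, 300 and 400 cGy and the whole 800 cGy group. Levels below are log2 processed signal minus the array's 75th percentile, and a change is a difference of such levels ± its standard error (SE) in the linear model (limma, 3 arrays against 3). A gene rose or fell where its p-value, adjusted over all features of a comparison by the Benjamini-Hochberg method, was under 0.05.

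Tie1 and Tek are the 2 members of a single receptor family, and the arrays read both through matching stretches of their transcripts, which are shown because the 2 genes differed in opposite directions between the strains. The probe of Tie1 lies at transcript position 3483, on the minus strand at chr4:118144132-118144191 of mm9, the build the files use. That of Tek lies at transcript position 3647, on the plus strand at chr4:94540624-94540683. Capitals mark bases that are the same in both probes when base 4 of Tie1 is set against base 1 of Tek.
Tie1 probe: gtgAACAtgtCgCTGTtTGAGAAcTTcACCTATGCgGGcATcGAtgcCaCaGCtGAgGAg
Tek probe: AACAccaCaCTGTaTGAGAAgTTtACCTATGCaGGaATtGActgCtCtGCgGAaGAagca
Of 57 aligned bases 39 were identical (68.4%).

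Promoter sequence is shown for Eng, Tie1 and Madcam1, 3 of the 8 genes that rose at every dose, as the 250 bases before the gene's start in RefSeq (GRCm38.p6). The RefSeq promoter table held 7 of the 9 genes, and Pecam1 and Cdh5 were not matched. Capitals mark AGGAAG or its reverse complement CTTCCT, a form of the sequence that ETS factors bind, a family with several regulators of endothelial genes.
Eng, chr2:32646345-32646594, plus strand: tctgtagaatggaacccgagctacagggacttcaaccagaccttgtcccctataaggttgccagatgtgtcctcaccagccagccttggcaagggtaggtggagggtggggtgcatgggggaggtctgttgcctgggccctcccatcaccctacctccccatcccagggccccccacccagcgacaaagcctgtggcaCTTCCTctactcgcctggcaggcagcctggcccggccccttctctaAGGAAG
Tie1, chr4:118489850-118490099, minus strand: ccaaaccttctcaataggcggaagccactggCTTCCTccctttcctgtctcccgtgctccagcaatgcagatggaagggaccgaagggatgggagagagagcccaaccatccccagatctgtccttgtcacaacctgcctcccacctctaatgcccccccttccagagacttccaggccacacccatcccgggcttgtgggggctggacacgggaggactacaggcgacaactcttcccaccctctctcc
Madcam1, chr10:79664309-79664558, plus strand: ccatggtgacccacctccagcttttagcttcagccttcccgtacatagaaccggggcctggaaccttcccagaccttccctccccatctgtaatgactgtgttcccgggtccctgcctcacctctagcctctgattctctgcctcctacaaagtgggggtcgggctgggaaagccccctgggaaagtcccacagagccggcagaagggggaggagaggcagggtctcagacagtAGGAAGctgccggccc
In Eng the matches began 52 and 6 bases before the start, in Tie1 219 and in Madcam1 16. On either strand, AGGAAG was in the window of 5 of the 7 genes (Eng, Emcn, Tie1, Madcam1 and Stab2) and in 29.5% of all 32851 windows of that length. CCGGAA, which shares the GGAA core, was in 1 of the 7 (Kdr) and in 12.03% of all windows. The 3 windows shown are all among the 5 with AGGAAG, and that of Tek held neither form. The GATA form AGATAA was in none of the 7 and in 9.99% of all, GGGCGG in 1 (Kdr) and in 32.7%, and TATAAA in none and in 12.4%. A match is a run of letters and not a measured binding site.

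The first question was how irradiation moved these genes within each strain. Nearly all of them were higher at every dose, and none fell. Of 29530 features, 7692, 7665 and 8606 fell in BALB.K with rising dose, and 6801, 7896 and 8376 in B10.BR. In BALB.K, 8 of the 9 genes rose at 300 cGy (20.7% of all features rose), 9 at 400 cGy (25.6%) and 9 at 800 cGy (29.3%). In B10.BR, 8 rose at 300 cGy (18.7%), 8 at 500 cGy (22.1%) and 9 at 900 cGy (25.8%). Their median change was 0.84, 0.99 and 1.16 in BALB.K and 1.10, 1.28 and 1.31 in B10.BR, whereas the median over all features lay between -0.12 and 0.08. The 3 comparisons of a strain share its unirradiated arrays. The gene that missed the threshold was Pecam1 each time. Kdr is counted by 1 of its 2 probes, which disagreed in BALB.K.

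**Figure D1:**
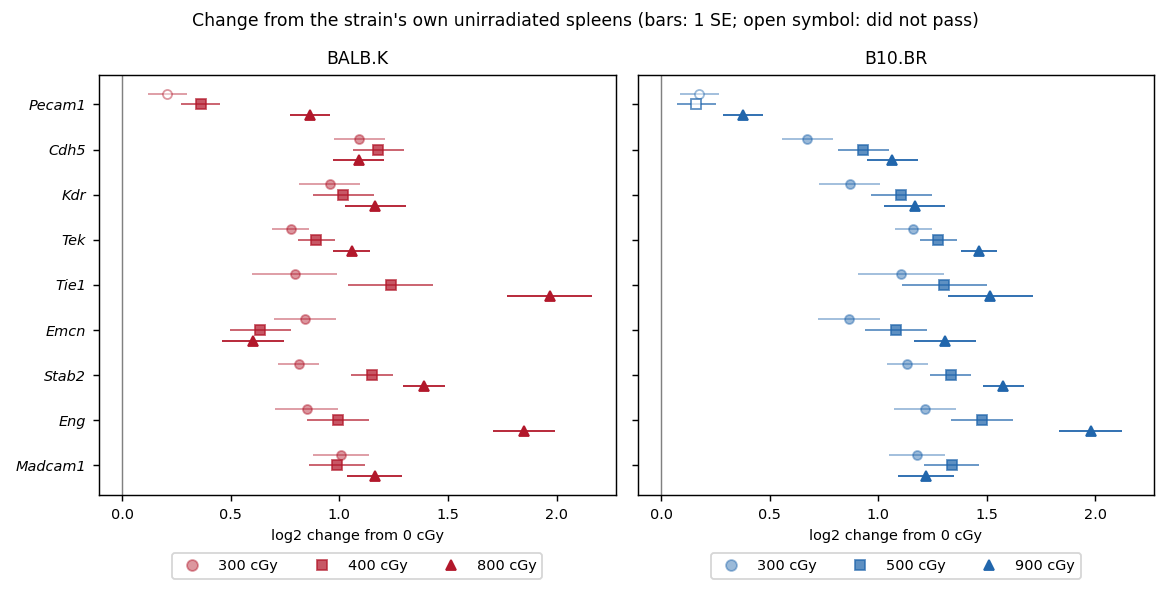
Log2 change (horizontal axis) of each of the 9 genes (rows) from the unirradiated spleens of the same strain, BALB.K on the left and B10.BR on the right, by dose; bars are 1 SE and open symbols did not pass. All points lie above 0 (Kdr is shown by its probe at position 5377), the highest being Tie1 at 800 cGy in BALB.K and Eng at 900 cGy in B10.BR, and Pecam1 has the only open symbols.

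These counts were also taken with other terms in the model. With the slide as a block, 8, 7 and 8 genes rose in BALB.K and 8, 9 and 9 in B10.BR. Within slide 1, 8 rose at 300 cGy and 8 at 500 cGy in B10.BR, and within slide 2, with a single BALB.K array at 300 cGy that is assumed to vary like the others, 7 did. Scaled on the spike-in probes, 6, 8 and 9 genes rose in BALB.K and 8, 8 and 9 in B10.BR. That scaling shifted the median of all features by between -0.12 (BALB.K at 300 cGy) and 0.44 (B10.BR at 900 cGy). Of the features that passed, 44.3% to 50.1% were higher in the 6 comparisons, and with spike-in scaling 39.8% (BALB.K at 300 cGy) to 87.4% (B10.BR at 300 cGy), while median scaling gave 61.9% for BALB.K at 300 cGy. The 9 genes had positive changes under each of these scalings. Blocking on the Ddx3y signal gave 8, 9 and 9 in BALB.K and 8, 8 and 9 in B10.BR.

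Of the junction genes, Cdh5 rose at every dose, and Pecam1 at 400 and 800 cGy in BALB.K and at 900 cGy in B10.BR. Cdh5 in BALB.K lay at 1.35, 1.34 and 1.43 without irradiation, 2.40, 2.60 and 2.40 after 300 cGy, 2.53, 2.54 and 2.58 after 400 cGy and 2.36, 2.40 and 2.62 after 800 cGy. Its changes there were 1.09 ± 0.12, 1.18 ± 0.12 and 1.09 ± 0.12, so that the level at the lowest dose was already as high as at the others, with overlapping arrays. The B10.BR arrays of Cdh5 read 1.88, 1.81 and 1.91 without irradiation, 2.74, 2.62 and 2.26 after 300 cGy, 2.80, 2.93 and 2.67 after 500 cGy and 3.12, 2.93 and 2.75 after 900 cGy. The changes were 0.67 ± 0.12, 0.93 ± 0.12 and 1.07 ± 0.12, and all irradiated arrays of both strains lay above the controls. At 300 cGy the fold was 2.13 in BALB.K and 1.59 in B10.BR.

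Pecam1 had the smallest change of the 9 genes in every comparison with 0 cGy but that of BALB.K at 800 cGy, where Emcn had. In BALB.K its arrays lay at 0.08, 0.23 and 0.10 without irradiation, 0.33, 0.28 and 0.42 after 300 cGy, 0.53, 0.51 and 0.45 after 400 cGy and 0.85, 1.03 and 1.12 after 800 cGy. The change was 0.21 ± 0.09 at 300 cGy (adjusted p = 0.0682), 0.36 ± 0.09 at 400 cGy (adjusted p = 0.00257) and 0.86 ± 0.09 at 800 cGy (adjusted p = 1.48e-07). In B10.BR the arrays lay at 0.27, 0.20 and 0.29 without irradiation, 0.48, 0.37 and 0.45 after 300 cGy, 0.57, 0.45 and 0.22 after 500 cGy and 0.72, 0.53 and 0.64 after 900 cGy. The change there was 0.18 ± 0.09 (adjusted p = 0.134), 0.16 ± 0.09 (adjusted p = 0.155) and 0.38 ± 0.09 (adjusted p = 0.00162). Its arrays at 500 cGy overlapped the controls, through the last array, without which the change was 0.26 and passed. With the slide as a block the rise at 400 cGy in BALB.K did not pass (0.35, adjusted p = 0.0745), nor did it under spike-in scaling (0.48, adjusted p = 0.0878), and the change at 500 cGy in B10.BR did (0.26, adjusted p = 0.0297). The change at 300 cGy in BALB.K passed with median scaling (0.39, adjusted p = 0.00362) and without BALB.K control 2 (0.26).

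**Figure D2:**
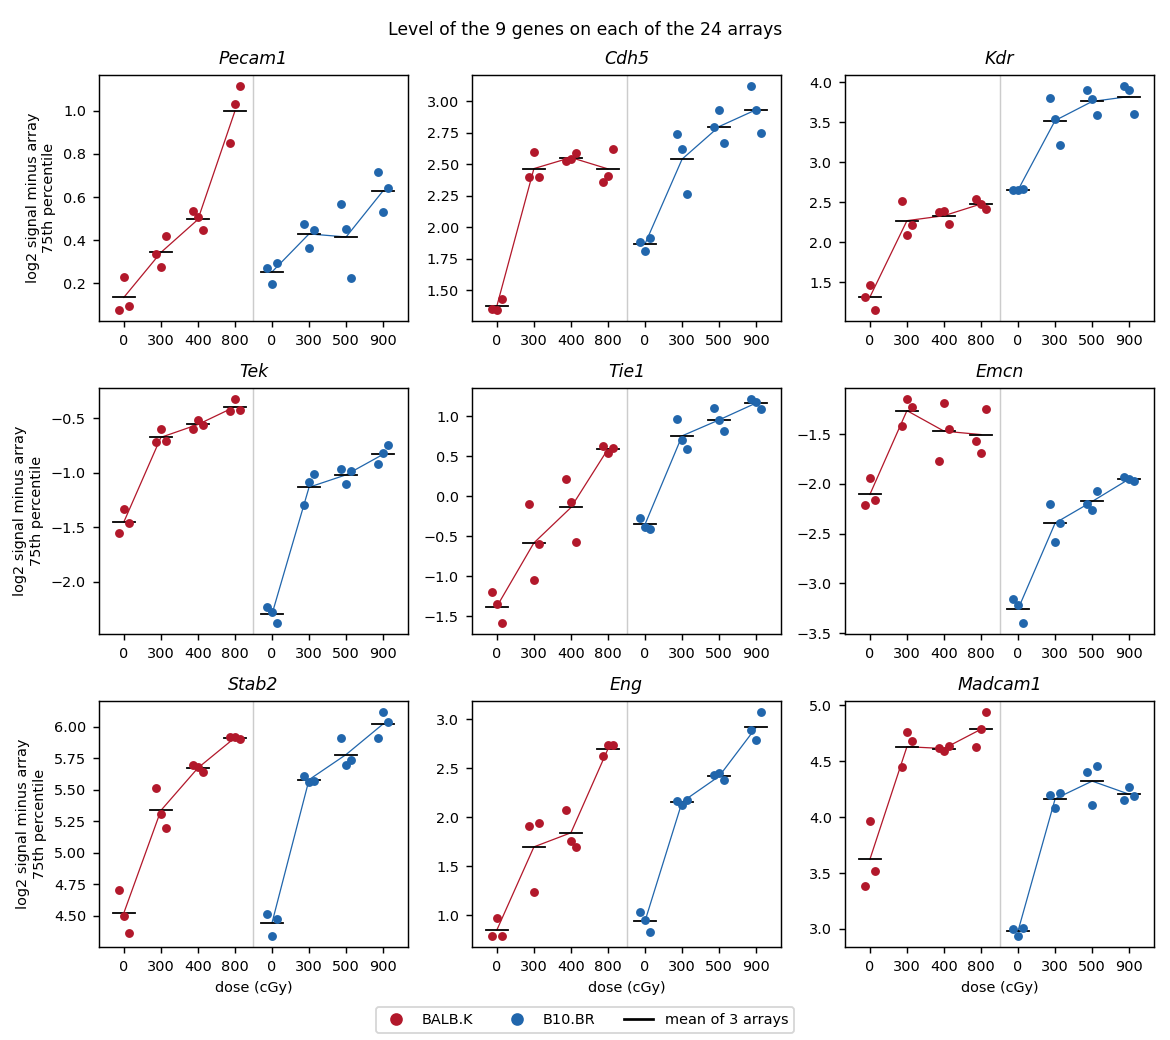
Log2 signal minus the array's 75th percentile (vertical axis, a scale of its own in each panel) on every array for the 9 genes, by dose in cGy, BALB.K in red and B10.BR in blue; points are arrays and black lines the means of 3. Irradiated arrays lie above their strain's controls in every panel but for 1 Pecam1 array at 500 cGy. The share of all features separated in this way was not counted, and 12330 to 17246 of 29530 features passed in the comparisons with 0 cGy.

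Among the receptors, Tek and Tie1 rose at every dose in both strains, as did Kdr by its probe at transcript position 5377, whereas by the probe at 4291 Kdr in BALB.K did not pass at 300 cGy (-0.29 ± 0.12, adjusted p = 0.0708) or 400 cGy (-0.04 ± 0.12, adjusted p = 0.816). By the former, at 300 cGy Kdr was 1.94-fold (BALB.K) and 1.83-fold (B10.BR) its control level. On that probe Kdr lay in BALB.K at 1.32, 1.47 and 1.15 without irradiation, 2.51, 2.09 and 2.21 after 300 cGy, 2.38, 2.39 and 2.22 after 400 cGy and 2.55, 2.48 and 2.41 after 800 cGy. Its changes were 0.96 ± 0.14, 1.02 ± 0.14 and 1.16 ± 0.14. In B10.BR it lay at 2.65, 2.65 and 2.67 without irradiation, 3.80, 3.55 and 3.22 after 300 cGy, 3.91, 3.79 and 3.59 after 500 cGy and 3.96, 3.90 and 3.61 after 900 cGy, with changes of 0.87 ± 0.14, 1.11 ± 0.14 and 1.17 ± 0.14. Every irradiated array was above the controls of its strain, and the 3 BALB.K arrays at 800 cGy still lay below the 3 unirradiated B10.BR arrays.

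Tek in BALB.K lay at -1.56, -1.34 and -1.46 without irradiation, -0.72, -0.60 and -0.71 after 300 cGy, -0.60, -0.51 and -0.56 after 400 cGy and -0.44, -0.32 and -0.43 after 800 cGy. The changes were 0.78 ± 0.08, 0.89 ± 0.08 and 1.06 ± 0.08, at folds of 1.71, 1.86 and 2.08. In B10.BR it lay at -2.23, -2.28 and -2.38 without irradiation, -1.30, -1.09 and -1.01 after 300 cGy, -0.96, -1.10 and -0.99 after 500 cGy and -0.92, -0.82 and -0.75 after 900 cGy. There it changed by 1.16 ± 0.08, 1.28 ± 0.08 and 1.46 ± 0.08, at folds of 2.24, 2.42 and 2.76. The order of the 8 group means ran from unirradiated B10.BR through unirradiated BALB.K and the 3 irradiated B10.BR groups to the 3 irradiated BALB.K groups, and of the neighbouring groups B10.BR at 300 and 500 cGy overlapped and BALB.K at 300 and 400 cGy met at -0.60.

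Tie1 showed the widest spread between pools. In BALB.K it lay at -1.20, -1.35 and -1.58 without irradiation, -0.10, -1.04 and -0.60 after 300 cGy, 0.22, -0.08 and -0.56 after 400 cGy and 0.63, 0.54 and 0.61 after 800 cGy. The 300 and 400 cGy arrays overlapped, and those at 800 cGy lay above all others of the strain. Its changes were 0.80 ± 0.20, 1.24 ± 0.20 and 1.97 ± 0.20, the last of them a fold of 3.91. B10.BR arrays read -0.26, -0.38 and -0.40 without irradiation, 0.97, 0.71 and 0.59 after 300 cGy, 1.10, 0.95 and 0.82 after 500 cGy and 1.22, 1.19 and 1.10 after 900 cGy, with changes of 1.10 ± 0.20, 1.31 ± 0.20 and 1.52 ± 0.20. The rise of Tie1 at 300 cGy in BALB.K passed with an adjusted p of 0.00261 but not in a fit of only the arrays compared (adjusted p = 0.0694) or under spike-in scaling (adjusted p = 0.0633), where Tek missed it too (0.66, adjusted p = 0.0605).

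Eng, the co-receptor, had the largest rise of the 9 genes at the highest dose of B10.BR and, after Tie1, of BALB.K. In BALB.K it lay at 0.79, 0.97 and 0.79 without irradiation, 1.91, 1.24 and 1.94 after 300 cGy, 2.07, 1.76 and 1.69 after 400 cGy and 2.62, 2.74 and 2.73 after 800 cGy. On B10.BR arrays Eng stood at 1.04, 0.95 and 0.83 without irradiation, 2.17, 2.12 and 2.18 after 300 cGy, 2.43, 2.45 and 2.38 after 500 cGy and 2.90, 2.79 and 3.08 after 900 cGy. The changes were 0.85 ± 0.14, 0.99 ± 0.14 and 1.85 ± 0.14 in BALB.K and 1.22 ± 0.14, 1.48 ± 0.14 and 1.98 ± 0.14 in B10.BR, where the groups of successive doses did not overlap. At the highest doses Eng was 3.60-fold and 3.94-fold its level in unirradiated spleens (adjusted p = 2.98e-09 and 1.39e-09).

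The sinusoidal scavenger receptor Stab2 rose with little spread. In BALB.K it lay at 4.70, 4.50 and 4.37 without irradiation, 5.51, 5.30 and 5.19 after 300 cGy, 5.70, 5.68 and 5.64 after 400 cGy and 5.92, 5.92 and 5.90 after 800 cGy. Levels of Stab2 in B10.BR were 4.52, 4.34 and 4.48 without irradiation, 5.61, 5.56 and 5.57 after 300 cGy, 5.91, 5.70 and 5.73 after 500 cGy and 5.91, 6.12 and 6.04 after 900 cGy. The changes were 0.81 ± 0.10, 1.15 ± 0.10 and 1.39 ± 0.10 in BALB.K and 1.13 ± 0.10, 1.33 ± 0.10 and 1.58 ± 0.10 in B10.BR, and the 3 unirradiated arrays of each strain lay below every irradiated one. Its folds at 800 and 900 cGy were 2.62 and 2.98.

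Emcn, the sialomucin, rose at every dose in both strains. In BALB.K it lay at -2.21, -1.94 and -2.16 without irradiation, -1.42, -1.14 and -1.22 after 300 cGy, -1.77, -1.19 and -1.44 after 400 cGy and -1.57, -1.69 and -1.25 after 800 cGy, with changes of 0.84 ± 0.14, 0.64 ± 0.14 and 0.60 ± 0.14. Its BALB.K groups of 300, 400 and 800 cGy overlapped, and neither step between them passed (-0.21, adjusted p = 0.436, and -0.03, adjusted p = 0.9). With the slide as a block the rises of Emcn at 400 and 800 cGy did not pass (0.40, adjusted p = 0.234, and 0.36, adjusted p = 0.261). In B10.BR it lay at -3.16, -3.22 and -3.40 without irradiation, -2.20, -2.58 and -2.40 after 300 cGy, -2.20, -2.26 and -2.07 after 500 cGy and -1.93, -1.95 and -1.97 after 900 cGy, and its changes of 0.86 ± 0.14, 1.08 ± 0.14 and 1.31 ± 0.14 had their largest value at the highest dose. At 900 cGy the B10.BR arrays had come up to the level of unirradiated BALB.K, with which they overlapped.

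Madcam1 (probe at transcript position 1350) rose by 0.99 to 1.34 at all doses. It lay in BALB.K at 3.38, 3.96 and 3.52 without irradiation, 4.45, 4.76 and 4.68 after 300 cGy, 4.62, 4.59 and 4.63 after 400 cGy and 4.63, 4.78 and 4.94 after 800 cGy. In B10.BR it lay at 3.00, 2.94 and 3.01 without irradiation, 4.20, 4.08 and 4.21 after 300 cGy, 4.40, 4.11 and 4.46 after 500 cGy and 4.16, 4.27 and 4.18 after 900 cGy. The changes were 1.01 ± 0.13, 0.99 ± 0.13 and 1.16 ± 0.13 in BALB.K and 1.18 ± 0.13, 1.34 ± 0.13 and 1.22 ± 0.13 in B10.BR. Irradiated groups overlapped each other and not the controls. Within slide 2 the BALB.K change at 300 cGy was 0.83 (adjusted p = 0.0562).

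The next question was whether the genes went on changing from one dose to the next. At 300 cGy the median change of the 9 genes was 0.84 in BALB.K and 1.10 in B10.BR, against 1.16 and 1.31 at the highest doses, but in BALB.K Pecam1 (0.21 of 0.86), Tie1 (0.80 of 1.97) and Eng (0.85 of 1.85) had most of their rise above 300 cGy. From 300 to 400 cGy in BALB.K only Stab2 rose (0.34 ± 0.10, adjusted p = 0.0497), against 3.17% of all features, and it did not pass without replicate 2 or 3 at 300 cGy or any array at 400 cGy (0.27 to 0.42 without 1 array, adjusted p up to 0.189). From 400 to 800 cGy Pecam1 (0.50 ± 0.09), Tie1 (0.73 ± 0.20) and Eng (0.86 ± 0.14) rose, 3 of 9 genes against 8.66% of features, with adjusted p of 0.000966, 0.0145 and 0.000564. By their second probes Kdr (0.62 ± 0.12, adjusted p = 0.00228) and Madcam1 (0.91 ± 0.28, adjusted p = 0.0302) passed in this step as well. On those probes the BALB.K changes from 0 to 300 and 800 cGy were -0.29 and 0.58 for Kdr, and 0.36 and 1.56 for Madcam1. Tie1 did not pass in the deposited matrix (0.75, adjusted p = 0.0674), without the last array at 400 cGy (0.52, adjusted p = 0.0953), with the Ddx3y signal as a block (0.39, adjusted p = 0.123) or with the level of exocrine pancreas genes as a covariate (0.51, adjusted p = 0.135). In B10.BR no gene passed from 300 to 500 cGy (0.671% of features rose), where the changes ran from -0.01 for Pecam1 to 0.26 for Eng and 1 gene (Cdh5) had an unadjusted p under 0.05 in limma. None passed from 500 to 900 cGy either (1.34%), where Eng had the largest change (0.50 ± 0.14, adjusted p = 0.0551) and Madcam1 the lowest (-0.12 ± 0.13); 4 genes (Pecam1, Tek, Stab2 and Eng) had an unadjusted p under 0.05. The steps of dose differ between the strains and were not compared. Scaling moved the split of the features that passed here. From 300 to 400 cGy in BALB.K 66.4% of them were higher, 99.7% with spike-in scaling and 11.6% with median scaling. In the other 3 steps 29.2% to 46.5% were higher, 0% to 84.6% with spike-in and 10.9% to 59.1% with median scaling. In B10.BR, spike-in scaling left 3 features passing from 300 to 500 cGy (472 before) and 25 from 500 to 900 cGy (1355 before), so those percentages rest on few features.

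The strains differed before irradiation, in both directions. Kdr (1.34 ± 0.14), Tie1 (1.03 ± 0.20) and Cdh5 (0.49 ± 0.12) were higher in B10.BR than in BALB.K, 3 of 9 genes against 22.6% of all features. Emcn (-1.15 ± 0.14), Tek (-0.84 ± 0.08) and Madcam1 (-0.64 ± 0.13) were lower, 3 of 9 against 30.7%. Neither count was far from the share over all features, of which 15766 of 29530 passed in this comparison. The arrays of the strains did not overlap for any of these 6 genes, and the share of all features without overlap was not counted. The adjusted p ran from 2.59e-07 for Tek to 0.00176 for Cdh5. Pecam1 (0.12 ± 0.09), Eng (0.09 ± 0.14) and Stab2 (-0.08 ± 0.10) did not pass and overlapped. In terms of fold, Kdr was 2.53 times as high in B10.BR, and Tie1 2.04 times. That is the Kdr probe at transcript position 5377; the probe at 4291 passed in the opposite direction (-0.35 ± 0.12, adjusted p = 0.0277). The unirradiated strains lay on separate slides: with the slide as a block, which links them through other groups, Kdr, Tek and Emcn still passed, whereas Cdh5 (0.30, adjusted p = 0.339), Tie1 (0.82, adjusted p = 0.0646) and Madcam1 (-0.44, adjusted p = 0.18) did not. Spike-in scaling, which shifted the median of all features by -0.80 in this comparison, turned the direction for Cdh5 (-0.31, adjusted p = 0.132), lowered Tie1 to 0.23 (adjusted p = 0.44) and made Pecam1 (-0.68), Stab2 (-0.88) and Eng (-0.71) pass as lower in B10.BR. With it 4.38% of the called features were higher in B10.BR, against 42.4% before and 69.2% with median scaling, under which Pecam1 (0.43) and Eng (0.41) passed as higher.

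**Figure D3:**
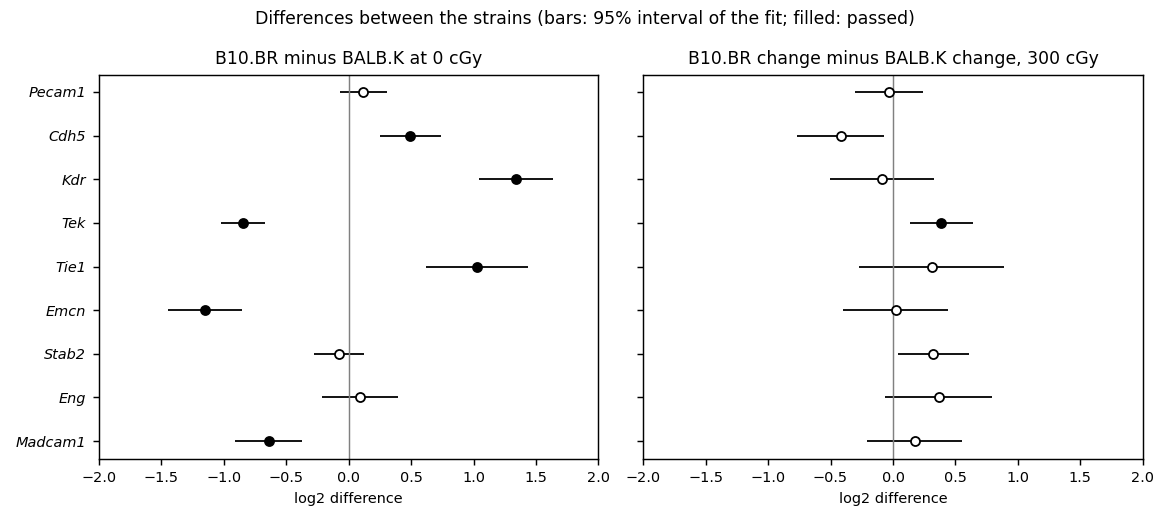
Difference between the strains at 0 cGy (left) and of their changes at 300 cGy (right) for the 9 genes, as log2 with 95% intervals of the fit; filled points passed, and values above 0 are higher in B10.BR. Of the 6 genes that passed on the left, Kdr has the highest value and Emcn the lowest (Kdr is shown by its probe at position 5377 and had the opposite direction by the probe at 4291, and Cdh5 turned its direction under spike-in scaling), and on the right Tek is the filled one.

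300 cGy was the dose given to both strains, so that their changes could be compared. Tek was the only gene whose change differed (0.39 ± 0.12 more in B10.BR, adjusted p = 0.0452), 1 of 9 against 10.9% of features. It did not pass with the slide as a block (0.43, adjusted p = 0.0899), and leaving out 1 array gave 0.33 to 0.47 and ended the call for 8 arrays: replicates 2 and 3 of each control group and of B10.BR at 300 cGy, and replicates 1 and 3 of BALB.K at 300 cGy. Its size followed the scaling, at 0.16 with median scaling (adjusted p = 0.387) and 0.87 with spike-in scaling (adjusted p = 0.137). With median scaling the difference for Cdh5 passed (-0.64, adjusted p = 0.0245), and with spike-in scaling it was 0.07. Of the features that passed, 55.4% had the higher change in B10.BR, 98.0% with spike-in scaling and 21.0% with median scaling. For the other genes the difference ran from -0.42 ± 0.16 for Cdh5 (adjusted p = 0.114) to 0.37 ± 0.20 for Eng (adjusted p = 0.272), and its 95% interval was -0.30 to 0.24 for Pecam1 and -0.40 to 0.44 for Emcn.

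Kdr and Madcam1 were each read by a second probe, and for Kdr the 2 probes did not tell the same story. The probe at transcript position 4291 (chr5:76330395-76330454 of mm9, minus strand) gave in BALB.K -0.29, -0.06 and -0.45 without irradiation, -0.57, -0.69 and -0.41 after 300 cGy, -0.13, -0.47 and -0.32 after 400 cGy and 0.11, 0.37 and 0.46 after 800 cGy. In B10.BR it gave -0.59, -0.57 and -0.68 without irradiation, 0.16, -0.06 and -0.06 after 300 cGy, 0.00, -0.01 and -0.32 after 500 cGy and 0.20, 0.20 and 0.21 after 900 cGy. By this probe, fitted among all 42316 probes, Kdr changed in BALB.K by -0.29 ± 0.12 at 300 cGy (adjusted p = 0.0708) and -0.04 ± 0.12 at 400 cGy (adjusted p = 0.816), where the arrays overlapped the controls at both doses, and rose at 800 cGy (0.58 ± 0.12, adjusted p = 0.000592). In B10.BR it rose at all 3 doses (0.63 ± 0.12, 0.50 ± 0.12 and 0.81 ± 0.12). The strains' changes at 300 cGy differed by this probe (0.92 ± 0.18, adjusted p = 0.00334) and did not pass by the other (-0.09 ± 0.20, adjusted p = 0.824). At 0 cGy it put B10.BR below BALB.K (-0.35 ± 0.12, adjusted p = 0.0277), where the probe at position 5377, 1086 bases further along the transcript, put it above. Over 12 arrays the 2 probes correlated at 0.27 in BALB.K and at 0.90 in B10.BR. No probe-level value here tells which of them follows the Kdr transcript.

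For Madcam1 the second probe, at transcript position 736 (chr10:79129132-79129191 of mm9, plus strand), had wider spread between pools. In BALB.K it gave -2.47, -2.27 and -2.35 without irradiation, -1.80, -2.45 and -1.76 after 300 cGy, -1.44, -1.75 and -1.93 after 400 cGy and -1.08, -0.78 and -0.54 after 800 cGy. In B10.BR it gave -3.03, -3.35 and -3.25 without irradiation, -2.27, -2.27 and -1.37 after 300 cGy, -1.97, -2.51 and -1.75 after 500 cGy and -1.55, -2.09 and -1.07 after 900 cGy. The changes were 0.36 ± 0.28, 0.66 ± 0.28 and 1.56 ± 0.28 in BALB.K, of which the last passed (adjusted p = 0.316, 0.059 and 8.99e-05), and 1.24 ± 0.28, 1.13 ± 0.28 and 1.64 ± 0.28 in B10.BR, all of which passed. Both probes had positive changes at all doses in both strains and were lower in unirradiated B10.BR (-0.85 ± 0.28, adjusted p = 0.0168, at position 736).

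**Figure D4:**
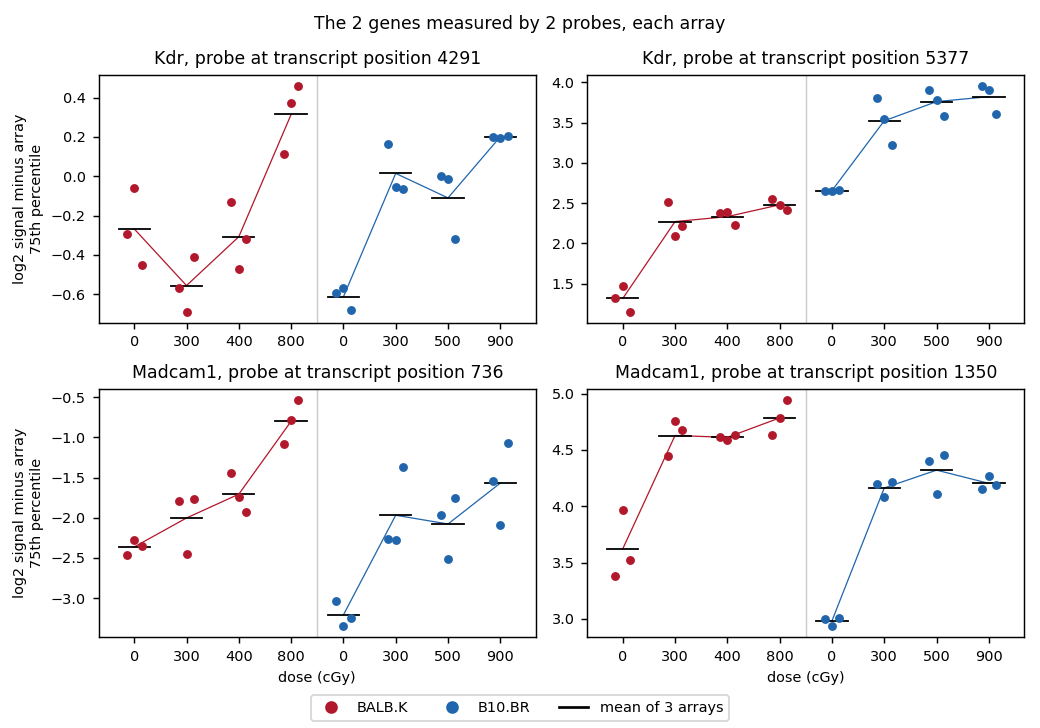
Log2 signal minus the array's 75th percentile on each array for both probes of Kdr (top) and Madcam1 (bottom), by dose in cGy, BALB.K in red and B10.BR in blue; black lines are means of 3 arrays. By the probe at position 4291, Kdr in BALB.K is above its controls on every array only at 800 cGy, whereas by the probe at 5377 it is so at each dose.

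Ligands and partners of the 9 genes were read as a list of 24. Of these, 16, 20 and 19 rose in BALB.K and 15, 16 and 17 in B10.BR with rising dose, and 2 fell each time. Over all features, 18.7% to 29.3% rose in these comparisons, and 6801 to 8606 of 29530 fell. The angiopoietin Angpt2, a ligand of Tek, rose by 1.15, 1.13 and 1.90 in BALB.K and 0.70, 1.15 and 1.32 in B10.BR beside Tek itself. Angpt1, the activating ligand of Tek, rose by 0.89, 0.75 and 1.15 and 0.69, 0.83 and 1.07, and Vegfa, the ligand of Kdr, by 0.83, 0.95 and 0.97 and 0.80, 1.06 and 1.53; both were singled out after their values were seen. Acvrl1, the receptor that signals with Eng, rose by 1.13, 1.36 and 2.05 and 1.34, 1.75 and 1.78. The 2 that fell were Itga4 and Itgb7. Itga4 changed by -0.96, -1.32 and -1.87 in BALB.K and -0.85, -1.12 and -1.65 in B10.BR, and Itgb7 by -0.55, -1.06 and -1.92 and -0.92, -1.34 and -1.91. They encode the 2 chains of the lymphocyte integrin that binds Madcam1, so that the addressin was higher and its ligand on lymphocytes lower in the same RNA. B and T cell genes fell with them: of 11 each, 10, 11 and 11 B cell genes and 9, 10 and 10 T cell genes fell in BALB.K, and the part of this in the integrin values was not tested.

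Other genes of the endothelium moved with the 9. Of 43, 37, 38 and 38 rose in BALB.K and 35, 38 and 39 in B10.BR, and 3, 2 and 2 and 2, 2 and 2 fell, with medians of 0.83, 0.96 and 1.22 and of 0.84, 1.11 and 1.16. Lyve1, a hyaluronan receptor like Stab2, rose by 1.74, 1.96 and 3.42 in BALB.K and 1.503, 2.20 and 2.10 in B10.BR. S1pr1, a sphingosine phosphate receptor that lymphocytes also express, fell, with changes of -1.14, -1.82 and -2.92 and -1.09, -1.89 and -1.97. Of 17 measured genes of sinusoids, the marginal sinus and leukocyte adhesion (18 listed, of which Sele did not pass the filter on dim probes), 14, 13 and 13 rose in BALB.K and 12, 12 and 13 in B10.BR, while 1, 2 and 4 fell in BALB.K and 3, 3 and 4 in B10.BR. Ltb, a lymphotoxin chain made by lymphocytes, was among those that fell, with changes of -0.50 and -1.10 at 400 and 800 cGy in BALB.K (at 300 cGy it did not pass, at -0.23) and -0.70, -0.94 and -1.51 in B10.BR. Stab1, the paralog of Stab2, rose by 1.10, 1.37 and 1.95 and 1.02, 1.40 and 1.68. The lists share genes, so their counts are not independent. Stab1 and Lyve1, among others, are in both lists of this paragraph, and Acvrl1, among others, in the endothelial list and that of ligands. The sinusoid and macrophage lists also share a gene. Of all features, 18.7% to 29.3% rose in these comparisons.

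Genes of macrophages, megakaryocytes and stromal cells rose too. All 13 macrophage genes were well above background on every array and rose in each of the 6 comparisons with 0 cGy, with medians of 1.31, 1.59 and 2.10 in BALB.K and 1.27, 1.62 and 1.98 in B10.BR. Of 11 megakaryocyte and platelet genes, 5, 9 and 11 rose in BALB.K and 10 at each dose in B10.BR, and of 14 stromal and mural genes 13, 12 and 14 and 13, 14 and 14. Shares were taken of the summed signal of all non-control probes, dim ones included, with a gene counted by its brightest probe. Signals were summed on a linear scale, so the brightest genes weigh most. Among the 9 these were Stab2 and Madcam1. Their mean processed signals in unirradiated BALB.K were 20477 and 10976, against 2291 for Cdh5, the next. The 9 genes made up 0.0174% to 0.0199% on unirradiated BALB.K arrays and 0.0550% to 0.0554% at 800 cGy. On B10.BR arrays they made up 0.0163% to 0.0181% at 0 cGy and 0.0528% to 0.0581% at 900 cGy. Macrophage genes went from 0.119% to 0.127% of the signal to 0.358% to 0.385% in BALB.K, and erythroid genes from 0.225% to 0.261% to 0.0467% to 0.0514%. B cell genes dropped from 0.116% to 0.127% to 0.0193% to 0.0207% in BALB.K at 800 cGy. The part of these shifts in the rise of the 9 genes was not tested.

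Exocrine pancreas genes, 21 in the list, varied between pools and moved with some of the groups. Their median share of the signal was 0.0216% in unirradiated BALB.K and 0.223%, 0.00448% and 0.431% at 300, 400 and 800 cGy, and 0.00150% in unirradiated B10.BR and 0.584%, 0.00882% and 0.686% at 300, 500 and 900 cGy. With the level of this list as a covariate, 9 of the 9 genes rose at each dose in BALB.K and 8, 8 and 9 in B10.BR, with medians of 0.82, 1.004 and 1.10 and of 1.03, 1.19 and 1.27. The part of these genes in the rise of the 9 was not tested further. Adipocyte genes rose as well: of 7 measured, 5, 7 and 7 in BALB.K and 3, 7 and 7 in B10.BR. Their medians were 1.80, 2.60 and 2.67 and 1.43, 1.91 and 2.32. Their median share of the signal was 0.0109% at 0 cGy and 0.0513% at 800 cGy in BALB.K. In B10.BR it was 0.00786% at 0 cGy and 0.0350% at 900 cGy. Their part in the rise of the 9 was not tested.

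**Figure D5:**
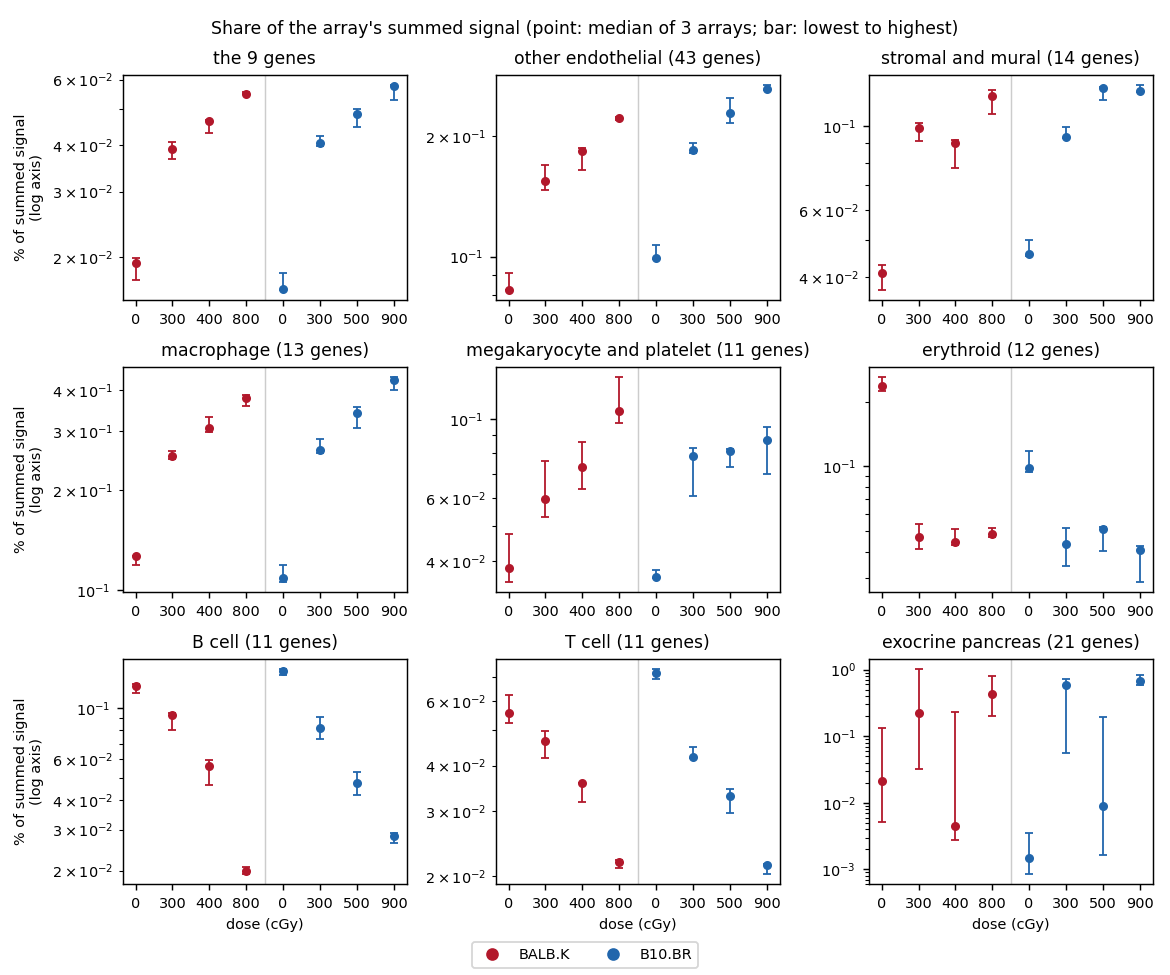
Share of the array's summed signal in percent (vertical log axis, its own in each panel) taken by the 9 genes and by lists of genes of other cell types, by dose in cGy, BALB.K in red and B10.BR in blue; points are medians of 3 arrays and bars run from the lowest to the highest. The 9 genes, other endothelial, stromal and macrophage genes lie higher in every irradiated group than at 0 cGy, erythroid, B and T cell genes lower, and exocrine pancreas genes vary most between pools of a group. In the panel of the 9 genes, Stab2 and Madcam1 weigh most.

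Across arrays the 9 genes went up and down together within a strain. Over the 36 pairs, the median Pearson r was 0.86 on the 12 BALB.K arrays (lowest 0.41, Pecam1 and Emcn; highest 0.96, Tie1 and Eng) and 0.93 on the 12 B10.BR arrays (lowest 0.60, Pecam1 and Madcam1; highest 0.99, Tie1 and Stab2). Over all 24 arrays the median was 0.64, with Kdr and Emcn at -0.21 and Tek and Madcam1 at 0.96. These values describe arrays that share dose groups, and after the group means were taken out the median r was -0.0028, with Kdr and Tie1 highest at 0.72 and Cdh5 and Tek lowest at -0.53. Among 19804 other named features, the 3 whose levels were most like those of Tie1 over the 24 arrays were Ccdc8 (r = 0.99), Rasip1 (0.98), a regulator of vessel formation, and Bri3 (0.98). For Eng they were Scamp5 (0.99), C1qtnf5 (0.98) and Camk1 (0.98), for Stab2 Ushbp1 (0.99), Nacc2 (0.98) and Rab11fip5 (0.98), and for Tek Nckap1, Mansc4 and Slc7a7 (each 0.98). Those most like Kdr were Kank1, Slc13a3 and Rnf150 (each 0.99), and those most like Cdh5 were Sirpa (0.99), Nfib (0.99) and Pcdhb20 (0.98). Emcn was matched most closely by Synpo2 (0.97), Lpl (0.96) and Dpysl4 (0.96), Madcam1 by Car13, Marcks and Ms4a6d (each 0.97), and Pecam1 by Adcy3 (0.94), Ap3d1 (0.93) and Pi4k2a (0.92). To the mean of the 9 scaled genes the closest were Bicc1, Rgl3 and Cmtm8 (each 0.99).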

How the data were processed

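Spleen RNA was measured on 24 one-colour arrays, 3 in each of 8 groups. The authors deposited the scanner's processed signal, an intensity per spot on a linear scale that Agilent Feature Extraction 10.5.1.1 had already background-corrected, per the file headers. The authors also deposited a matrix of log2 values with scale, centring and direction unstated. Differences between its arrays followed those of the scanner values with a Pearson's r that rounds to 1, so it was read as log2 signal; its column medians ran from -0.12 to 0.18, what each probe is centred on stays unknown, and it was used within each strain only.

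Here the 75th percentile of log2 processed signal, over the non-control spots of an array, was subtracted from that array, outlier spots were left out and spots of a probe averaged. Probes well above background on all 3 arrays of at least 1 group were kept (42316 of 55681). Genes were named through RefSeq, and a gene was represented by its brightest probe (highest mean over the arrays), giving 29530 features. A linear model over all 24 arrays was fitted with limma 3.58.1 (R 4.3.3, data.table package 1.17.8; lmFit and eBayes), two-sided, with Benjamini-Hochberg adjustment over all features of each of 12 comparisons at 0.05. The number of arrays limits the precision, and p-values measure the spread between pools. The rule for names was all 9 genes and, of every other list, up to 4 genes with the largest change among those that passed in each comparison with 0 cGy; Angpt1 and Vegfa were named outside it. The genes and lists were chosen with earlier results of these data known. Pairing by replicate number was checked only between groups that were compared directly. The deviations of same-numbered arrays correlated above 0.1 in all 3 pairs of arrays only for B10.BR at 900 and 500 cGy. The numbers were thus not taken to pair the arrays. Data were simulated for all 24 arrays and 29515 features, from each feature's mean over the arrays and its spread within groups. Changes of log2 size 1 and 2, 100 of each, were added to BALB.K at 300 cGy, and the groups did not differ otherwise. Against 0 cGy, 64 of 100 changes of size 1 and 87 of 100 of size 2 were recovered, with 8 of 159 calls false. The real comparison called 13818 of 29530 features, so these rates need not hold for it. The alternatives are given in the closing section.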

Additional observations from a re-analysis of the deposited data

Results flagged for a closer look

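The change of Tek from 0 to 300 cGy was 0.39 larger on the log2 scale in B10.BR than in BALB.K (limma interaction, 3 arrays in each of 4 groups, adjusted p = 0.0452), and the difference between the strains' changes is what marks it. It passed the threshold narrowly, and most alternatives ended the call, as given above and below. Of the 9 genes, 1 passed in this comparison, against 10.9% of all features. That count was near the share over all features. For the Kdr probe at transcript position 4291 (A_55_P2094469) the strains' changes differed by 0.92 (adjusted p = 0.00334), higher in B10.BR, whereas for the Kdr probe at position 5377 the difference was -0.09. All B10.BR arrays of both comparisons lay on slide 1 and the BALB.K arrays on slides 2 and 3, and the part of the slide was not tested for the probe at 4291. Groups of 3 arrays were too small to look for single arrays that stand apart.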

How the results depend on the processing

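The counts of genes that rose against 0 cGy stayed within 1.5 times under all 20 alternatives and 24 fits without 1 array. Over the 62 changes that passed, 1404 of 1453 alternative values kept direction and call, 48 lost the call and 1 turned direction (Cdh5 between the strains, -0.31 with spike-in scaling). Of 1130 values for the 46 changes that did not pass, 22 passed and 55 turned direction. Some settings leave the size of each change as it is and can move only its p-value. Among them are the fit of only the arrays compared, the intensity trend and every probe as its own feature. A block on the replicate number is another, since each group holds every replicate number on a single array. By that design the medians against 0 cGy stayed at 0.84, 0.99, 1.16, 1.10, 1.28 and 1.31. No call on the 9 genes changed with this block, and the arrays share only a number.

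From 300 to 400 cGy in BALB.K, 0 genes passed under normexp background correction, median or spike-in scaling, no filter on dim probes, the mean of a gene's probes, every probe as its own feature, only the arrays compared, the exocrine pancreas level as a covariate and the deposited matrix, and 2 with the slide as a block. From 400 to 800 cGy, 5 passed with the mean of a gene's probes. From 500 to 900 cGy in B10.BR, 1 (Eng) passed with the Ddx3y block, the deposited matrix, robust moderation with an intensity trend, and only probes well above background on all arrays, and 2 with quantile normalization. Between the strains at 0 cGy 3 passed with the slide as a block. The difference of changes at 300 cGy passed for 0 genes under normexp, quantile normalization, spike-in scaling, no filter, every probe as its own feature, only the arrays compared, robust moderation, and the slide as a fixed or random block (correlation 0.14).

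Signs that turned are given by setting. With the Ddx3y block, Eng and the median of the 9 (both -0.037) turned between the strains, and Emcn from 400 to 800 cGy (0.16). In the deposited matrix Pecam1 turned from 300 to 500 cGy (0.0064). With the exocrine covariate, Kdr (-0.048) and Tie1 (-0.061) turned from 500 to 900 cGy, Pecam1 (0.022) in the difference of changes and Emcn (0.084) from 400 to 800 cGy. With the mean of a gene's probes, Madcam1 turned from 500 to 900 cGy (0.20) and from 300 to 400 cGy (0.14), and Kdr in the difference of changes (0.41). With median scaling, Pecam1 turned from 300 to 500 cGy (0.040), Kdr from 500 to 900 cGy (-0.034), Stab2 between the strains (0.24), Emcn (-0.20), Madcam1 and the median (both -0.051) in the difference of changes, and Cdh5 (-0.13), Eng (-0.074), Kdr (-0.16), Pecam1 (-0.065), Tek and the median (both -0.10) from 300 to 400 cGy. With normexp and quantile normalization, Emcn turned in the difference of changes (-0.088 and -0.14), and with the latter Madcam1 from 300 to 400 cGy (0.039). With the slide as a block, Pecam1 turned from 300 to 500 cGy (0.081, also within slide 1) and between the strains (-0.17), as did the median there (-0.15), and Tie1 in the difference of changes (-0.17); with the random block Pecam1 turned from 300 to 500 cGy (0.0025). With spike-in scaling, Cdh5 (-0.31), Eng (-0.71), Pecam1 (-0.68) and the median (-0.71) turned between the strains, Cdh5 (0.066), Kdr (0.40) and Pecam1 (0.45) in the difference of changes, Emcn (0.037) and Madcam1 (0.23) from 300 to 400 cGy, and Cdh5 (0.17) and Emcn (0.22) from 400 to 800 cGy. The cause was not tested.

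Without 1 array, the values ranged from -0.091 to 0.081 (Pecam1, 300 to 500 cGy), from -0.025 to 0.17 (Kdr, 500 to 900 cGy), from -0.16 to 0.013 (Stab2, strains), from -0.073 to 0.12 (Emcn), -0.23 to 0.064 (Kdr) and -0.080 to 0.0056 (Pecam1) in the difference of changes, from -0.085 to 0.26 (Eng), -0.029 to 0.18 (Kdr) and -0.11 to 0.048 (Madcam1) from 300 to 400 cGy, and from -0.19 to 0.10 (Emcn, 400 to 800 cGy). The count of genes passing ranged from 0 to 2 from 300 to 400 cGy, from 2 to 3 from 400 to 800 cGy and from 0 to 1 for the difference of changes.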
